A study of Mus musculus with 24 samples.

Results

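Fatty acid synthesis and the steps next to it were followed in mouse quadriceps muscle through 10 genes, *Fasn*, *Scd1*, *Acaca*, *Acly*, *Elovl6*, *Me1*, *Srebf1*, *Dgat2*, *Thrsp* and *Acsm3*. They were chosen by symbol, and 10 of 10 were present among the 14159 genes of the expression matrix. Muscle came from young adult females of the strains C57BL/6 (abbreviated B6) and MRL/MpJ (abbreviated MRL), in 4 conditions: uninjured, a volumetric muscle loss (VML) injury given saline, the same injury filled with decellularized extracellular matrix (ECM) from porcine small intestine, and the same injury filled with polyethylene powder (PE). Injured muscle was taken at day 21, and each of the 8 groups had 3 libraries of polyA-selected RNA from whole quadriceps, 24 in all. The MRL strain is known for regenerative healing and for autoimmunity and was compared with B6, the usual strain for this injury, to ask how strain changes the response to injury and to implanted material. Levels are given as log2 CPM (CPM is the read count scaled to a common library size, normalised by the authors), so a difference of 1 is a doubling, and 3 counts in a library of average depth correspond to 0.119 CPM.

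Fatty acid synthesis turns cytosolic citrate into fat. ATP citrate lyase cuts citrate to acetyl-CoA, acetyl-CoA carboxylase makes malonyl-CoA, fatty acid synthase builds palmitate with NADPH, and elongases, desaturases and acyltransferases turn palmitate into longer, unsaturated and finally stored fat. In mice the pathway is best known from liver and adipose tissue, where insulin and SREBP-1c raise its genes after feeding. In muscle tissue, fat cells lie between the fibres and around the muscle and add their RNA to a whole-muscle sample.

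Positions below are those of the GENCODE annotation of GRCm39. *Srebf1* (chr11:60089913-60113407, minus strand) encodes SREBP-1, the transcription factor that turns on most of the others, and *Thrsp* (chr7:97062139-97066937, minus strand) encodes Spot 14, a small nuclear and cytosolic protein that promotes lipogenesis. *Acly* (chr11:100367165-100440756, minus strand) encodes ATP citrate lyase, and *Me1* (chr9:86462646-86578104, minus strand) encodes the cytosolic malic enzyme, which supplies NADPH. *Acaca* (chr11:84020476-84292477, plus strand) and *Fasn* (chr11:120696672-120715995, minus strand) encode acetyl-CoA carboxylase 1 and fatty acid synthase. *Elovl6* (chr3:129326004-129432144, plus strand) encodes the elongase of palmitate, *Scd1* (chr19:44382894-44399154, minus strand) the desaturase that makes oleate, and *Dgat2* (chr7:98802491-98831991, minus strand) the enzyme of the last step to triglyceride. *Acsm3* (chr7:119360137-119386736, plus strand) encodes a mitochondrial acyl-CoA synthetase for medium-chain fatty acids, which activates fatty acids and does not build them. Processed pseudogenes listed in the same annotation are nearly identical to parts of 3 members, among them *Gm5182* to *Acaca* (99.2% identity), *Gm11295* to *Elovl6* (97.4%) and *Gm7049* to *Me1* (98.4%). None of these pseudogenes has a row in the matrix, and whether reads were split between them and the members was not tested. *Rwdd2a*, also without a row, lies on the opposite strand of part of the *Me1* transcript, and its reads could not be told apart from those of *Me1* without strand information.

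Promoters are shown for 3 members because the members varied together from library to library: the synthase *Fasn*, *Thrsp*, the member most like it across libraries, and *Acsm3*, which has no part in synthesis itself. The windows are the 250 bases before the start of transcription in RefSeq (GRCm38.p6, a different build from the gene positions above), printed 5′ to 3′ on the strand of the gene, with each CCAAT box (CCAAT or its reverse complement) in capitals. The coordinates are chr11:120824548-120824797 (minus) for *Fasn*, chr7:97417551-97417800 (minus) for *Thrsp* and chr7:119760673-119760922 (plus) for *Acsm3*.
Fasn: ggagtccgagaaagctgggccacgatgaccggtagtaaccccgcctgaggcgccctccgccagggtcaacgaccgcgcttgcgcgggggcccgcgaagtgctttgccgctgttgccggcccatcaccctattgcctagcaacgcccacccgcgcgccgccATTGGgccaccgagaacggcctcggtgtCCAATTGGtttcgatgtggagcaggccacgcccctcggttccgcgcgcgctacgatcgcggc
Thrsp: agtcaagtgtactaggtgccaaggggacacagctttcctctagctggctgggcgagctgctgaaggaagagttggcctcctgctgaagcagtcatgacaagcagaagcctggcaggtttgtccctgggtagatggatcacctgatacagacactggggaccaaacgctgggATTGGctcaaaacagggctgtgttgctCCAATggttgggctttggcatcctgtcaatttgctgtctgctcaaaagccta
Acsm3: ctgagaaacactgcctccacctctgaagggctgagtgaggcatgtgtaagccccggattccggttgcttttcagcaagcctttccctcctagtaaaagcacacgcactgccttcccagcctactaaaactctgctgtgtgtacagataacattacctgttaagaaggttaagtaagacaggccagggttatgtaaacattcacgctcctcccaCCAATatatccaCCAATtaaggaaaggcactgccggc
*Fasn* held 3 CCAAT boxes in this window, of which 2 share bases on opposite strands (the run of 8 capitals), and *Thrsp* and *Acsm3* held 2 each. RefSeq entries were found for 8 of the 10 members, with 11 promoters in all. CCAAT was present in 6 of these 11, from 5 genes (*Fasn*, *Thrsp*, *Acsm3*, *Me1* and *Srebf1*), and in 33.8% of the 32851 mouse promoters of the table. The GC box GGGCGG was present in 4 of 11, from *Acly*, *Me1* and *Srebf1*, and in 32.7% of all. The core letters of a sterol regulatory element, TCACNCCAC, and the E-box CACGTG were in 0 of 11, and in 1.1% and 6.0% of all promoters, each searched on both strands. With shares this low, and only exact letters in 250 bases searched, 0 of 11 does not show that the members lack these elements. The windows also differed in base composition, with 69.2% G and C and 33 CpG in *Fasn*, 53.6% and 2 in *Thrsp*, and 49.2% and 5 in *Acsm3*, against a median of 52.4% G and C over all promoters of the table.

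The label of muscle was checked against 8 fibre markers, 8 of which were present with a mean level between 10.66 and 13.38 log2 CPM in every library. Replicate 2 of the PE-treated MRL mice stood apart, with a mean correlation of 0.819 with the other libraries of its group, the lowest of the 24. Of 80 genes that separated the strains by more than 2 log2 units in the libraries without PE, 75 were on the MRL side in this library. In replicates 1 and 3 of its group 79 and 80 were. The libraries without PE served to choose these genes, so their side was fixed by the choice. Replicate 2 also had more macrophage marker RNA (mean 7.96, against 4.60 and 4.57 in replicates 1 and 3) and less adipocyte marker RNA (4.97 against 8.44 and 7.85). Its macrophage marker level lay within the range of PE-treated B6 mice (6.92 to 8.59). Those of replicates 1 and 3 lay within the range of saline-treated MRL mice (3.64 to 5.37). Which of the 3 libraries is typical of PE-treated MRL mice cannot be told. Comparisons that use replicate 2 are therefore given with and without it. In whole-muscle RNA, fewer cells of a type and less RNA per cell cannot be told apart.

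All 10 members had their lowest group mean in PE-treated B6 mice, although with libraries scaled to equal totals 4 of them changed sign between PE-treated and saline-treated B6 mice. On the deposited scale the highest group mean was that of PE-treated MRL mice in 8 members and of uninjured B6 mice in *Me1* and *Acsm3*. Between neighbouring groups in the order of means the libraries overlapped in 7 of 7 neighbour pairs for 9 members, and in 6 of 7 for *Elovl6*, where uninjured MRL mice lay above saline-treated MRL mice. Per kilobase of transcript, the only scale on which genes can be compared with each other, the mean level in uninjured B6 muscle was 1010 CPM per kilobase for *Scd1*, 269 for *Thrsp*, 130 for *Dgat2*, 127 for *Me1* and 126 for *Acly*. The lowest were 66.7 for *Acaca*, 49.6 for *Fasn*, 29.7 for *Srebf1*, 20.3 for *Elovl6* and 11.8 for *Acsm3*. In PE-treated MRL muscle *Scd1* reached 2080 and *Acsm3* was again the lowest at 5.94. Members also varied more among replicates than most genes did. Their SD within groups ran from 0.72 in *Srebf1* and 0.81 in *Me1* to 1.81 in *Scd1*, against a median of 0.40 over all genes, and only 1.02% of genes had a larger SD than *Scd1*.

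**Figure D1:**
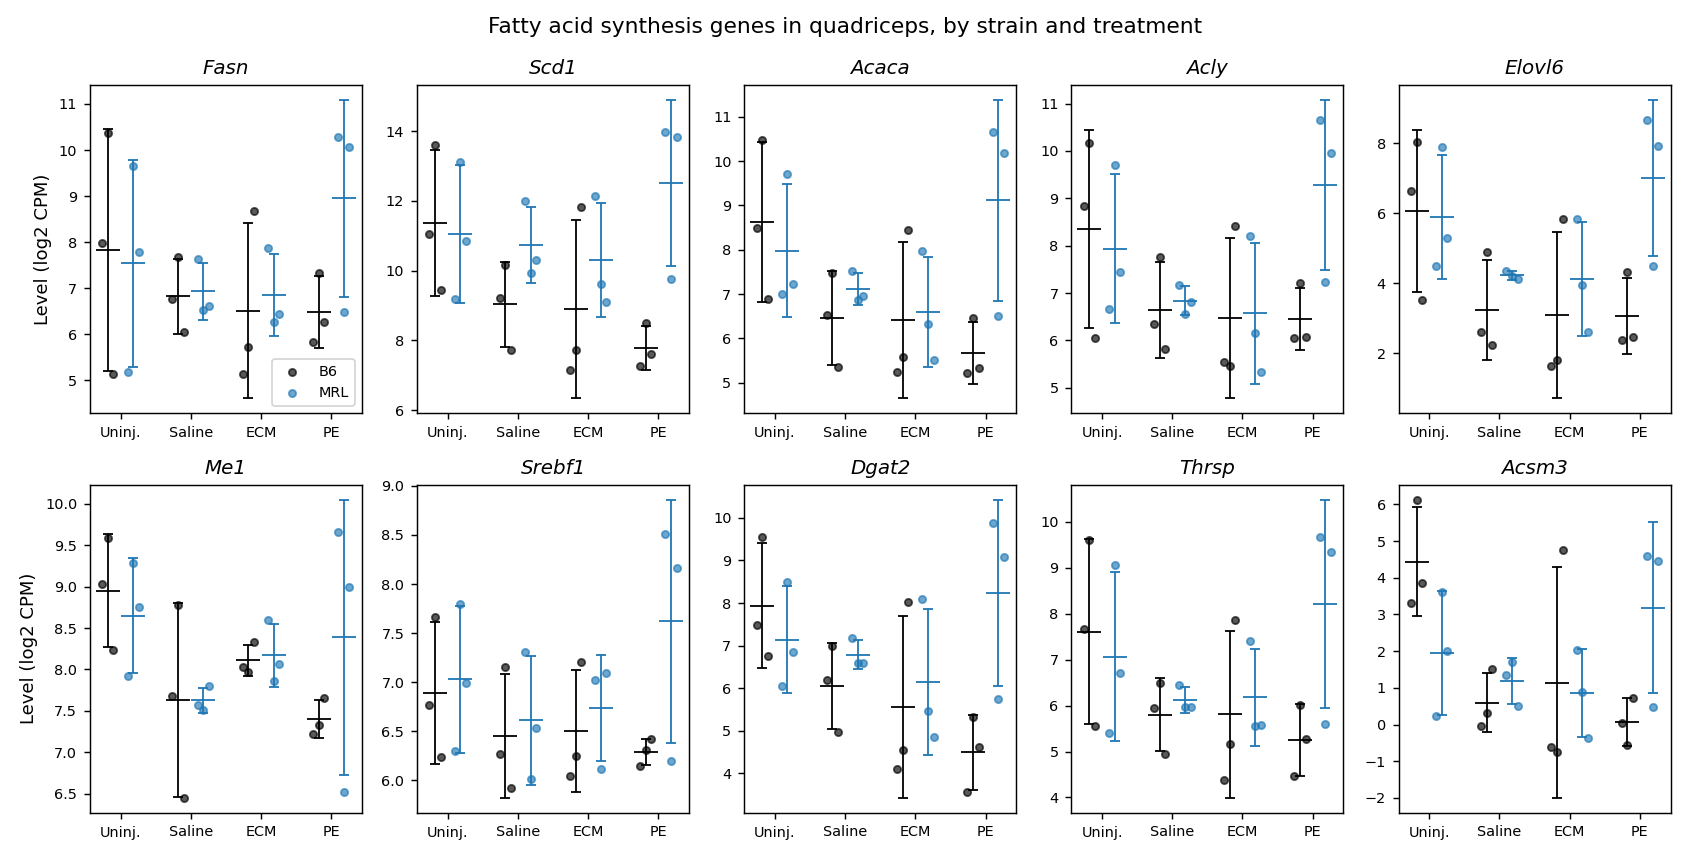
Level of each of the 10 genes (y axis, log2 CPM, a different range in each panel) by treatment (x axis) in B6 (black) and MRL (blue) mice, with 1 point per library, a bar at the mean and whiskers of 1 SD (n = 3). In the PE groups the MRL points split into a high pair and a low library, replicate 2, while the 3 B6 points cover a narrower range in every panel.

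The regulator *Srebf1* varied least. Its levels in PE-treated B6 mice were 6.15, 6.31 and 6.42, and in PE-treated MRL mice 8.51, 6.20 and 8.16. In uninjured muscle they were 6.77, 7.66 and 6.24 in B6 mice and 6.30, 7.80 and 6.99 in MRL mice. The low MRL library under PE thus lay inside the B6 range and the other 2 lay above every other library of the study. *Thrsp* was 4.46, 6.02 and 5.27 in B6 mice given PE and 9.67, 5.60 and 9.35 in MRL mice given PE, against 7.67, 9.61 and 5.56 in uninjured B6 mice and 5.41, 9.05 and 6.71 in uninjured MRL mice.

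Among the enzymes that supply substrate, *Acly* was 6.06, 7.21 and 6.07 in B6 mice given PE and 10.65, 7.24 and 9.96 in MRL mice given PE. These groups did not overlap, by a margin of 0.03 between B6 replicate 2 and MRL replicate 2. *Me1* was the member with the smallest strain difference under PE. It was 7.22, 7.33 and 7.66 in PE-treated B6 mice, 9.66, 6.52 and 8.99 in PE-treated MRL mice, and 9.03, 9.59 and 8.23 in uninjured B6 mice, and the low MRL library lay under all 3 B6 libraries.

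For the synthesis steps, *Acaca* was 5.21, 6.47 and 5.33 in B6 mice given PE and 10.66, 6.50 and 10.17 in MRL mice given PE. *Fasn* was 5.83, 7.34 and 6.26 in the B6 libraries, and the MRL libraries had 10.29, 6.48 and 10.07. Both showed 2 MRL libraries at more than 10 and the third inside or just above the B6 range. In uninjured B6 muscle *Fasn* spanned the whole range, at 7.98, 10.37 and 5.13, and in uninjured MRL muscle it was 5.17, 9.66 and 7.78. After saline it was 6.77, 7.67 and 6.04 in B6 mice and 7.64, 6.52 and 6.62 in MRL mice, and after ECM 5.14, 5.72 and 8.68 in B6 mice and 7.88, 6.26 and 6.44 in MRL mice. Saline-treated MRL mice had the narrowest range of these 6 groups.

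Downstream of the synthase, *Scd1* was the member with the highest level per kilobase. It was 7.26, 8.49 and 7.60 in B6 mice given PE and 13.97, 9.77 and 13.82 in MRL mice given PE, or up to 360 CPM in the B6 libraries and 16040 and 14470 CPM in the high MRL libraries. Uninjured B6 muscle had 11.04, 13.60 and 9.43 and uninjured MRL muscle 9.19, 13.12 and 10.86, so that every uninjured B6 library lay above every PE-treated B6 library. *Elovl6* was 2.38, 4.31 and 2.46 in B6 mice given PE and 8.66, 4.48 and 7.91 in MRL mice given PE. *Dgat2* was 3.55, 5.32 and 4.61 in the B6 group and 9.89, 5.75 and 9.08 in the MRL group, against 7.48, 9.56 and 6.76 in uninjured B6 muscle. For *Dgat2* and *Elovl6* the B6 and MRL groups under PE did not overlap, even with replicate 2 of the MRL mice.

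*Acsm3* was the lowest member per kilobase in both groups for which that level is given. It was 3.31, 6.13 and 3.87 in uninjured B6 muscle, or 9.869 to 69.88 CPM, and 0.05, -0.57 and 0.73 in PE-treated B6 muscle, at most 1.585 CPM. Saline-treated B6 mice had -0.03, 0.32 and 1.51 and ECM-treated B6 mice -0.61, -0.74 and 4.77, a group in which replicate 3 stood apart. In MRL mice it was 0.24, 3.61 and 2.00 in uninjured muscle and 4.60, 0.49 and 4.45 under PE. The saline libraries of MRL mice lay between 0.51 and 1.70, and those with ECM between -0.36 and 2.03.

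Strain was compared first in the PE groups. All 10 members had higher means in MRL than in B6 mice. The median of their log2 fold changes was 3.03, against -0.02 over all genes, but 0 of 10 passed the test (adjusted p under 0.05, limma with Benjamini-Hochberg adjustment), where 3.35% of all genes passed. An unadjusted p under 0.05 was found in 8 members and in 19.1% of all genes. The smallest p-values were those of *Scd1*, with a difference of 4.74 ± 1.36 (SE; adjusted p = 0.0621), and *Dgat2*, 3.75 ± 1.12 (adjusted p = 0.0732). The smallest difference was that of *Me1*, 0.99 ± 0.61 with a 95% interval of -0.29 to 2.28. Groups did not overlap in 5 members (*Scd1*, *Acaca*, *Acly*, *Elovl6* and *Dgat2*), each higher in MRL mice, as in 9.89% of all genes. With the replicate number as a block in these 2 groups, *Scd1* alone passed (adjusted p = 0.045), as did 8.02% of all genes, and *Dgat2* had an adjusted p of 0.0528.

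Without replicate 2 of the PE-treated MRL mice, 10 of 10 members passed, each higher in MRL mice, where 24.6% of all genes passed and 10.6% passed as higher. The differences were then 6.11 ± 1.37 for *Scd1* (adjusted p = 0.00335), 5.23 ± 1.35 for *Elovl6*, 4.99 ± 1.10 for *Dgat2* and 4.75 ± 1.04 for *Acaca*. They were 3.70 ± 1.28 for *Fasn*, which had the largest adjusted p, 0.0411, and about 2 for *Srebf1* (2.04 ± 0.49) and *Me1* (1.93 ± 0.50). In this setting the median difference was 4.36. Replicate 2 was the lowest PE-treated MRL library in every member, so leaving it out could only raise the estimates. It was singled out after these data were seen, and its choice is not independent of the result. Leaving out any of the other 5 libraries of the 2 groups left 0 members past the test. Markers of other cells moved with the members. The mean level of 11 adipocyte markers, none of them at a count of 0, ran from 3.30 to 4.47 in PE-treated B6 mice and from 4.97 to 8.44 in PE-treated MRL mice, and the log2 of their summed CPM from 8.07 to 9.08 and from 9.28 to 12.57. The mean level of 6 macrophage markers went the other way, at 6.92 to 8.59 in PE-treated B6 mice against 4.60, 7.96 and 4.57 in PE-treated MRL mice (log2 of summed CPM 10.43 to 12.29 and 7.58 to 12.02). Without replicate 2 of the PE-treated MRL mice, 9 of 11 adipocyte markers passed as higher and 6 of 6 macrophage markers as lower in MRL mice, *Cd68* at -4.58 ± 0.47. The part of either in the result was not tested.

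**Figure D2:**
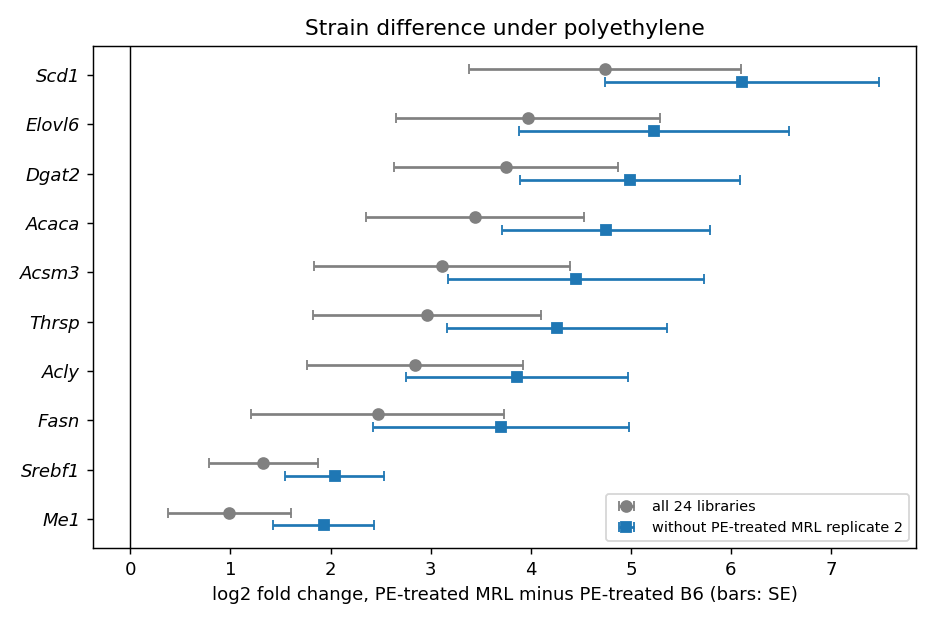
Log2 fold change of PE-treated MRL against PE-treated B6 mice (x axis) for each gene (y axis), with bars of 1 SE, from all 24 libraries (grey circles) and without replicate 2 of the PE-treated MRL mice (blue squares). Every estimate lies above 0, from 0.99 to 4.74 in the first setting and from 1.93 to 6.11 in the second.

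The strain comparison had no called member in the other 3 conditions. In uninjured muscle 0 of 10 passed (2.6% of all genes did), with a median of -0.36 and values from -2.48 ± 1.28 for *Acsm3* to 0.14 for *Srebf1*. After saline 0 of 10 passed (2.51% of all genes), with a median of 0.46 and the highest value in *Scd1*, 1.72 ± 1.36, and 1 member changed sign with libraries scaled to equal totals. With ECM 0 of 10 passed (2.66% of all genes), with a median of 0.29, where 4 members changed sign under equal totals. No member had an unadjusted p under 0.05 in any of these 3 conditions. The intervals were wide, from -2.92 to 2.34 for *Fasn* and from -3.15 to 2.54 for *Scd1* in uninjured muscle, so these data do not show that the strains have the same level.

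The injury itself was compared with uninjured muscle in each strain. In B6 mice with PE, *Acsm3* fell by 4.37 (SE 1.28, adjusted p = 0.0221) and *Dgat2* fell by 3.44 (SE 1.12, adjusted p = 0.0336). The other 8 did not pass, and all 10 had negative estimates with a median of -2.66, against 0.02 over all genes. Of all genes 24.8% passed in this comparison and 10% passed as lower, and 2 of 10 members is close to that background. Groups did not overlap in 5 members (*Scd1*, *Acaca*, *Me1*, *Dgat2* and *Acsm3*), each lower with PE, as in 24.1% of all genes. The 2 calls rested on few libraries. Neither passed without replicate 2 of the uninjured B6 mice or without replicate 1 or 2 of the PE-treated B6 mice, *Dgat2* was lost without any of 5 of the 6 libraries, and 4 members passed without replicate 3 of the uninjured B6 mice. Without replicate 2 of the PE-treated MRL mice, which enters here through the shared estimate of spread, 5 members and 34.8% of all genes passed. The mean level of 6 of 6 macrophage markers was 3.70 to 4.05 in uninjured and 6.92 to 8.59 in PE-treated B6 muscle (log2 of summed CPM 6.86 to 7.22 and 10.43 to 12.29). That of 8 of 8 fibre markers was 12.02 to 13.28 and 10.66 to 12.47 (summed 16.81 to 17.19 and 15.36 to 16.50), and that of 11 of 11 adipocyte markers 5.74 to 7.83 and 3.30 to 4.47 (summed 10.08 to 12.26 and 8.07 to 9.08). Their part in the result was not tested.

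Saline and ECM gave estimates of the same sign in B6 mice. After saline 0 of 10 members passed, where 0% of all genes did (1751 genes, or 12.4%, and 3 members had an unadjusted p under 0.05), and the median was -1.85. *Acsm3* had -3.84 ± 1.28 (adjusted p = 0.303), the smallest unadjusted p. Its 3 saline libraries all lay under the uninjured ones, as in 7.34% of all genes. *Elovl6* had -2.83 ± 1.32 (adjusted p = 0.397). With ECM 0 of 10 passed, where 0.424% of all genes did and 2372 had an unadjusted p under 0.05, with a median of -2.04. *Acsm3* had -3.29 ± 1.28 and *Elovl6* -2.98 ± 1.32. The 3 comparisons with uninjured B6 muscle share the same control libraries, of which replicate 2 was the highest in every member and replicate 3 the lowest in all but *Acsm3*.

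In MRL mice the signs differed between saline or ECM and PE. After saline 0 of 10 members passed (0% of all genes, with 439 at an unadjusted p under 0.05), and all 10 had negative estimates with a median of -0.81. *Elovl6* and *Me1* did not overlap between these groups, each lower after saline, as in 7.07% of all genes. With ECM 0 of 10 passed (0.0141% of all genes), all 10 had negative estimates and the median was -0.94. With PE 0 of 10 passed (9.73% of all genes), and 9 had positive estimates with a median of 1.14, among them *Scd1* with 1.47 ± 1.36 and *Fasn* with 1.41 ± 1.26, while *Me1* had -0.26 and 1 member changed sign under equal totals. When replicate 2 of the PE-treated MRL mice was left out all 10 estimates were positive with a median of 2.41, and 0 of 10 members and 0.00706% of all genes passed.

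**Figure D3:**
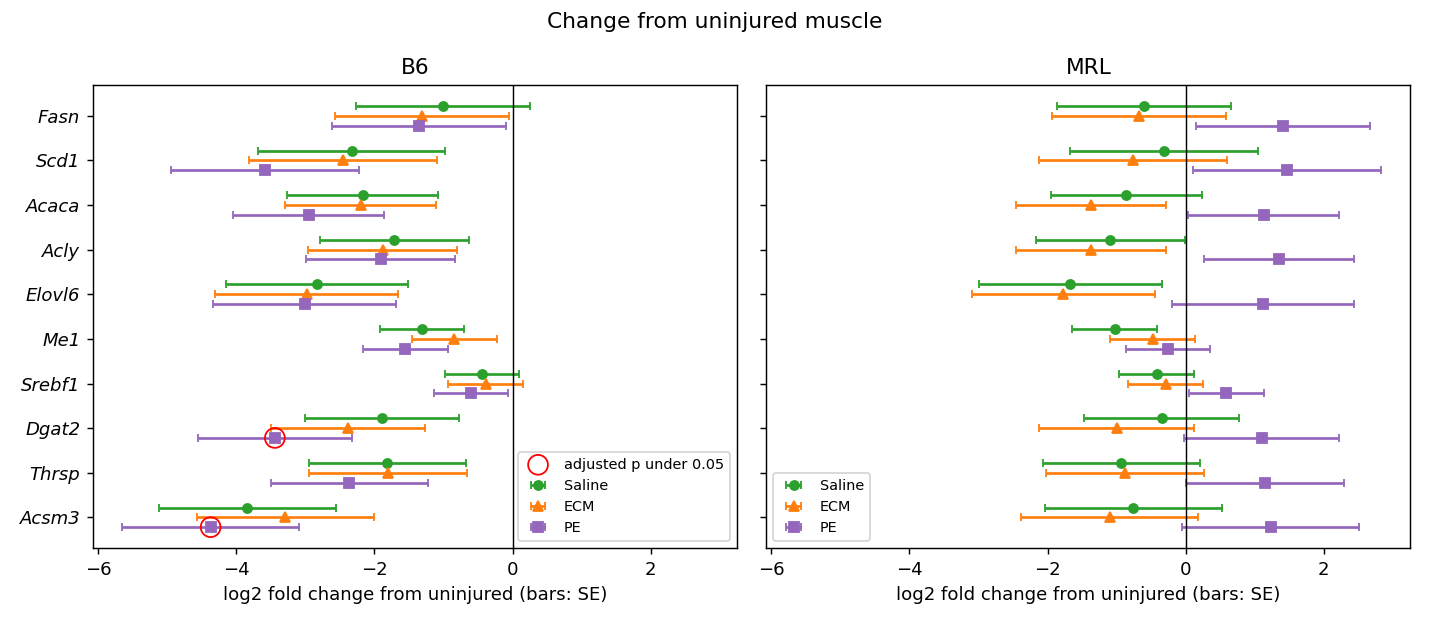
Log2 fold change from uninjured muscle (x axis, bars of 1 SE) of each gene (y axis) after saline (green), ECM (orange) and PE (purple), in B6 (left) and MRL mice (right). Red rings mark an adjusted p under 0.05, reached by *Dgat2* and *Acsm3* with PE in the B6 panel, and in the MRL panel the PE estimates lie above 0 except that of *Me1*.

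Implants were then compared with saline and with each other. In B6 mice 0 of 10 members passed for ECM against saline (0.0283% of all genes passed), for PE against saline (5.97%) and for PE against ECM (0.226%). The medians were -0.08, -0.44 and -0.64, and under equal totals 1, 4 and 3 members changed sign, so no direction is given for them. The estimate of *Dgat2* for PE against saline was -1.56 ± 1.12. In MRL mice 0 of 10 passed for ECM against saline (0.00706% of all genes, median -0.19, 1 sign changed). For PE against saline and for PE against ECM 0 of 10 members and 0% of all genes passed, although 3298 and 4022 genes had an unadjusted p under 0.05. All 10 members had positive estimates in both, with medians of 1.99 and 2.16. *Acly* had 2.44 ± 1.08 and *Elovl6* 2.79 ± 1.32 against saline (adjusted p = 0.189 and 0.211), and neither overlapped between those groups, as in 10.8% of all genes. Without replicate 2 of the PE-treated MRL mice these estimates were 3.46 and 4.06 (adjusted p = 0.192 and 0.201). All 10 members then had an unadjusted p under 0.05 against saline and against ECM, as did 1940 and 2315 of all genes. Past the test were 0 members in both, and 0% and 0.00706% of all genes. Against ECM *Acly* had 2.72 ± 1.08 and *Acaca* 2.51 ± 1.09 (adjusted p = 0.119 and 0.145).

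Whether a change differed between the strains was tested as an interaction. No gene passed for any of the 4 changes tested (0% of all genes in each), with 570 genes at an unadjusted p under 0.05 for saline against uninjured, 320 for ECM against saline, 614 for PE against saline and 522 for PE against ECM. For PE against saline the MRL change exceeded the B6 change in all 10 members, with a median of 2.63 and values from 1.00 ± 0.87 in *Me1* to 3.02 ± 1.93 in *Scd1* (adjusted p = 0.988 for each). For PE against ECM the median was 2.83, and *Acaca* had 3.25 ± 1.54 with a 95% interval of 0.02 to 6.48, the only member with an unadjusted p under 0.05 (0.0484, adjusted p = 0.997). For saline against uninjured the median was 1.02, with 3.08 ± 1.81 in *Acsm3*, and for ECM against saline it was -0.03, with 4 signs changed under equal totals. Without replicate 2 of the PE-treated MRL mice the medians of both PE interactions were 3.90 and 4.04. An unadjusted p under 0.05 was then found in 10 and 9 members and in 2625 and 2076 of all genes. Again 0 of 10 passed, where 4.41% and 1.9% of all genes did.

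The members varied together from library to library. Over the 24 libraries the 45 pairs of members had correlations from 0.66 to 0.98 with a median of 0.88. After subtracting the mean of each group the range was 0.53 to 0.99 and the median again 0.88, so the shared variation was also present among replicates of a group. These are correlations of libraries that share their depth and tissue composition, given as a description. *Acaca*, *Thrsp*, *Acly* and *Elovl6* were the most alike, at 0.98 for *Acaca* with *Thrsp* and for *Acly* with *Elovl6*, and *Me1* the least, with a median of 0.76 with the others and 0.66 with *Acsm3*. The mean over the 10 members was highest in PE-treated MRL replicates 1 (9.66) and 3 (9.20), uninjured B6 replicate 2 (9.52) and uninjured MRL replicate 2 (8.83). High libraries therefore came from both strains and from uninjured as well as treated muscle. The lowest were ECM-treated B6 replicate 1 (4.67) and PE-treated B6 replicate 1 (4.82).

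Among genes outside the list, the 3 most like each member were taken by Pearson correlation over 24 libraries. *Slc25a1*, the mitochondrial citrate carrier, was nearest to *Fasn* (0.95), *Acly* (0.97) and *Elovl6* (0.96), and *Agpat2*, an acyltransferase of triglyceride assembly, was nearest to *Acaca* (0.98) and *Thrsp* (0.97). *Tusc5* was nearest to *Scd1* (0.96), *Tmem45b* to *Dgat2* (0.97), *Mmd* to *Srebf1* (0.92), *Otop1* to *Acsm3* (0.94) and *Gpd1*, glycerol-3-phosphate dehydrogenase, to *Me1* (0.91). For *Scd1* the next were *Slc25a48* and *Rbp4*, a retinol carrier, and for *Dgat2* they were *Slc24a3* and *Lipe*, hormone-sensitive lipase. The rest were *Aacs* and *Ptger3* for both *Fasn* and *Thrsp*, *Pmvk* and *Aifm2* for *Acaca*, *Tkt*, transketolase, and *Agpat2* for both *Acly* and *Elovl6*, *Dhdh* and *1600014C10Rik* for *Me1*, *Aacs* and *Rbp4* for *Srebf1*, and *Tspan18* and *Cidea* for *Acsm3*. Between 0.58% (*Me1*) and 2.13% (*Acaca*) of all genes had a correlation over 0.8 with a member.

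The members were then set against 11 adipocyte markers that are not members (*Adipoq*, *Lep*, *Plin1*, *Cidec* and others), all 11 of them present. Pearson's r over 24 libraries was 0.95 for *Dgat2*, 0.94 for *Scd1* and 0.93 for *Acaca* and *Thrsp*, with a Spearman rho of 0.95, 0.93, 0.91 and 0.92 (10 relations tested, permutation p and adjusted p = 1e-05 for each, the smallest that 100000 permutations can give). It was 0.71 for *Me1*, with a rho of 0.66 (permutation p = 6e-05 and 7e-04, unchanged by adjustment), and 0.85 to 0.89 for *Srebf1*, *Acsm3*, *Fasn*, *Elovl6* and *Acly*. Without the 2 libraries farthest from the median marker level, PE-treated MRL replicates 1 and 3, r was still 0.62 for *Me1* and 0.77 to 0.93 for the others. After subtracting group means it was 0.70 for *Me1* and 0.82 to 0.95 for the others, and this was not tested. The permutations took the 24 libraries as exchangeable across groups, so their p-values also reflect differences between group means. The marker level ran from 2.90 in an ECM-treated B6 library to 8.44 in PE-treated MRL replicate 1.

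**Figure D4:**
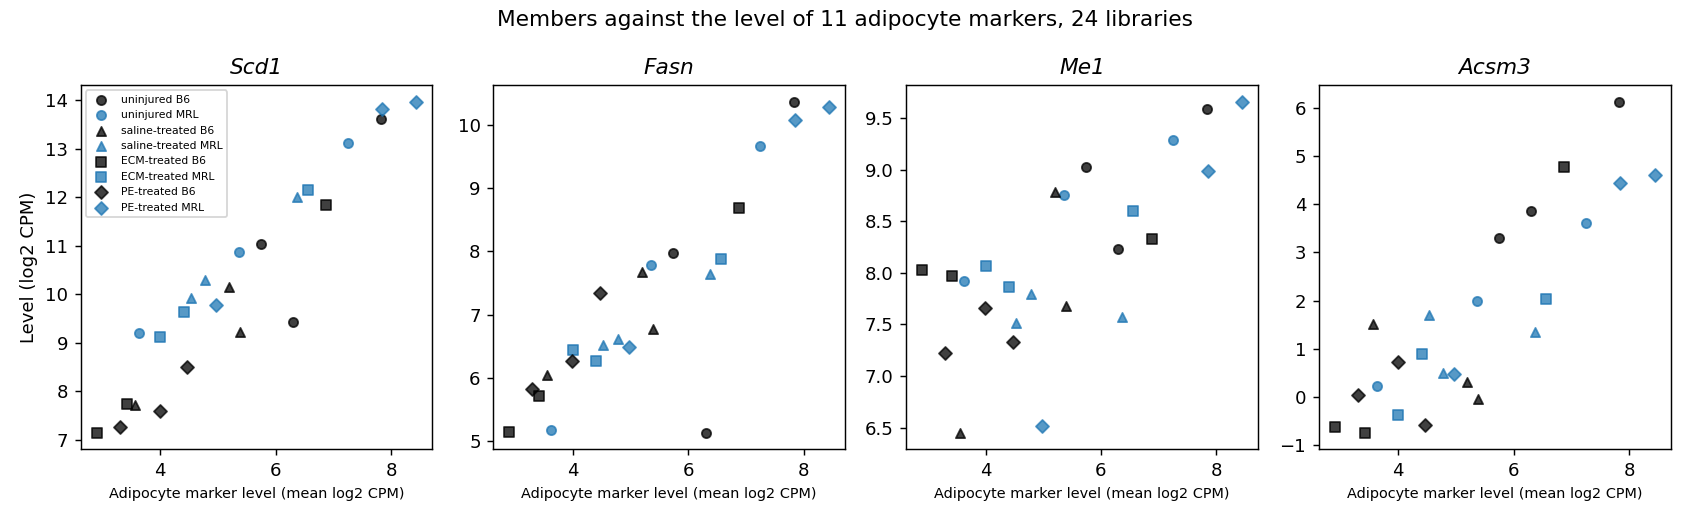
Level of *Scd1*, *Fasn*, *Me1* and *Acsm3* (y axes, log2 CPM) against the mean level of 11 adipocyte markers (x axis, log2 CPM) in 24 libraries, with strain by colour and treatment by shape. *Scd1* follows the markers closely (r = 0.94), *Me1* more loosely (r = 0.71), and in the *Fasn* panel uninjured B6 replicate 3 lies below the rest at 5.13.

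Markers of other cell types moved less evenly with the members. Brown adipocyte markers (5 of 6 present) averaged 3.13 to 5.12 in uninjured B6, 0.77 to 0.94 in PE-treated B6 and 2.00 to 3.90 in PE-treated MRL muscle. They did not move as 1, and the median of their log2 fold changes between the strains under PE was 0.25. *Cidea*, a lipid droplet protein of brown fat, was higher in MRL than in B6 mice under PE by 5.99 ± 1.55 (adjusted p = 0.0372). With PE in B6 mice it fell by 6.43 (adjusted p = 0.00986). *Ucp1*, the uncoupling protein, fell by 8.25 (adjusted p = 0.0062) to a group mean of -2.31. Its PE-treated B6 replicates 2 and 3 lay under the level of 3 counts, so the size of this fall is uncertain. The other brown adipocyte markers did not pass there. *Dio2* was higher in every PE-treated B6 library than in uninjured B6 replicates 1 and 3, and lower than in replicate 2. *Lep*, which encodes leptin, was the 1 called gene of the adipocyte list between the strains under PE, at 4.82 ± 1.27 (adjusted p = 0.0405). With replicate 2 of the PE-treated MRL mice left out, *Lep* was at 6.03 and 9 of the 11 adipocyte markers passed, all but *Pparg* (adjusted p = 0.0731) and *Cebpa* (adjusted p = 0.109). Of the 5 brown adipocyte markers 3 then passed as higher in MRL mice, *Ucp1* (7.94 ± 1.91), *Cidea* (7.60 ± 1.55) and *Prdm16* (1.39 ± 0.49), and *Dio2* passed as lower (-2.33 ± 0.65). *Zic1* had -1.59 ± 0.71 and did not pass (adjusted p = 0.111). The size of the *Ucp1* difference is uncertain too, as it uses the same PE-treated B6 libraries. *Cidec*, *Fabp4* and *Tusc5* fell with PE in B6 mice by 3.52, 2.36 and 3.47. Mammary epithelium markers (7 of 9 present) averaged -2.28 to 3.46 over all libraries, with up to 4 of the 7 at a count of 0. In PE-treated MRL replicate 1, the library with the highest members, they averaged -1.99 with 3 of 7 at 0. In replicate 3 of that group, which also had high members, they averaged 3.32 with 0 of 7 at 0. Keratinocyte and sebocyte markers were present for only 2 of 8, *Krt10* and *Mc5r*, and averaged 1.31 to 2.91. *Mc5r* was higher in MRL than in B6 mice under PE when replicate 2 of the PE-treated MRL mice was left out (1.42 ± 0.42, adjusted p = 0.0183). *Krt10* then had 0.01 ± 0.25 and did not pass. Of 6 macrophage markers, 6 rose with PE in B6 mice (*Cd68* by 5.76 ± 0.95) and 4 in MRL mice, of which none passed without replicate 2 of the PE-treated MRL mice. *C1qb* differed between the strains under PE, at -2.10 ± 0.52 in MRL against B6 mice (adjusted p = 0.0278), and without that library all 6 passed as lower in MRL mice, *C1qb* at -2.65 ± 0.52 and *Lyz2* at -4.56 ± 0.50.

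Genes next to the members were read from 7 lists with 66 genes in the matrix: regulators, supply of citrate, acetyl-CoA and NADPH, malonyl-CoA turnover, elongases, desaturases, triglyceride assembly and acyl-CoA synthetases. Between the strains under PE 0 of 66 passed, with a median of 0.66, and without replicate 2 of the PE-treated MRL mice 28 passed, 26 of them higher in MRL mice, where 24.6% of all genes passed and 10.6% passed as higher. With PE in B6 mice 3 rose and 16 fell, with a median of -0.55, where 24.8% of all genes passed and 10% passed as lower. When replicate 2 of the PE-treated MRL mice was left out 28 passed there, 6 of them higher (34.8% of all genes). Of the 12 supply genes 6 fell, among them *Mdh1*, cytosolic malate dehydrogenase (-3.86 ± 0.88), *Pcx*, pyruvate carboxylase (-3.23 ± 1.02), and *Acss2*, which makes acetyl-CoA from acetate (-2.34 ± 0.69). Of the 14 genes of triglyceride assembly 4 fell, *Mogat2* (-3.31), *Agpat9* (-1.99), *Agpat3* (-1.40) and *Agpat1* (-0.97), and *Lpin2* rose by 1.72. *Mogat2* lay under the level of 3 counts in PE-treated B6 replicates 1 and 3, so the size of its fall is uncertain.

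In the same comparison, where 10% of all genes passed as lower, 3 of 6 genes of malonyl-CoA turnover fell. They were *Acacb*, the carboxylase that restrains fatty acid oxidation in muscle (-2.15 ± 0.56), *Mlycd*, malonyl-CoA decarboxylase (-1.45 ± 0.36), and *Stk11* (-0.52 ± 0.19). Of the 9 acyl-CoA synthetases 3 fell, *Acss3* (-2.26), *Acsl1* (-2.08) and *Acss1* (-1.57). *Srebf2*, the regulator of sterol synthesis related to *Srebf1*, rose by 1.13 (adjusted p = 0.0101), as did *Elovl1* by 1.33 (adjusted p = 0.0487), and 0 of 5 desaturases other than *Scd1* passed. With PE in MRL mice 6 of 66 rose and 1 fell, where 9.73% of all genes passed, a share near that of the lists. *Pgd*, of the NADPH-making pentose phosphate pathway, rose by 2.08, *Me2* by 1.48 and *Idh1* by 1.33, *Fads1*, a desaturase of polyunsaturated fat, by 1.83, *Elovl5* by 1.45 and *Acsl5* by 1.87, and *Acsl6* fell by 1.21. With replicate 2 of the PE-treated MRL mice left out 0 of 66 passed there. In the remaining comparisons *Acsl4* alone passed. It was higher in MRL than in B6 mice after saline (0.74 ± 0.19), where 2.51% of all genes passed. It was also higher with PE against saline in B6 mice (0.81 ± 0.19), where 5.97% passed. Leaving out replicate 2 of the PE-treated MRL mice, which changes the shared estimate of spread, gave 11 of 66 for PE against saline (17.5% of all genes), 6 for PE against ECM (11.5%) and 3 for ECM against uninjured (3.74%) in B6 mice. It gave 5 for the interaction of PE against saline (4.41%) and 4 for that of PE against ECM (1.9%).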

How the data were processed

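RNA of 24 quadriceps samples was sequenced. The authors quantified reads with kallisto against the Ensembl cDNA of GRCm39, summed transcripts to genes (tximport, length-scaled TPM), kept genes above 1 CPM in at least 3 libraries, normalised with TMM in edgeR and deposited log2 CPM with a prior count of 2. These are not counts, so no count model was fitted. The file holds 14160 rows, of which 1 has no symbol and was dropped. From the lowest value, -3.65 (a count of 0), the mean effective library size was 25149678 reads. Linear CPM was obtained by removing the prior, 0.0795 CPM.

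The test was limma (version 3.58.1, under R 4.3.3), applied to log2 CPM (1 coefficient per group, all 24 libraries, variance trend, 2-sided, Benjamini-Hochberg over 14159 genes, called at an adjusted p under 0.05). The study fitted voom weights on its counts, which were not used here. Scripts were first tested on simulated data. For 3 against 3 libraries, an exact permutation test of a single gene cannot go below 0.1. The study describes independent samples, and p-values measure the spread between them. The members and gene lists were chosen with earlier results of these data known. Every member is named, with fold changes given for called members or otherwise for up to 2 with the smallest unadjusted p under 0.05 (others by rank or as contrast, chosen after their values were seen), the 3 genes most correlated with each, and up to 4 called genes per list. Same-numbered libraries deviated together from their group means in the PE groups only (correlations 0.105, 0.532 and 0.439), a pairing that comes from the data and not from the labels. Alternatives were log2(CPM + 1), a mean log2 CPM of at least 1, only the groups compared, library weights, equal library totals, a constant prior variance, the replicate block and each library left out. Near-identical transcripts were searched with BLAST 2.17.0 (identity of 90% or more, covering 50% or more of the shorter one).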

Additional observations from a re-analysis of the deposited data

How the results depend on the processing

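The number of members past the test was the same under log2(CPM + 1), a filter on the mean level, equal totals, a constant prior variance and the replicate block over all groups, in all 20 comparisons. With that replicate block *Dgat2* and *Acsm3* still passed with PE against uninjured in B6 mice (adjusted p = 0.0474 and 0.0288). The block in the PE groups alone was added after seeing the data and gave 1 member (*Scd1*, 4.74) and 1136 genes against 474. With only the compared groups in the fit, 5 members passed for PE against uninjured in B6 mice (4231 genes). Leaving out libraries gave 0 to 4 members there (533 to 3435 genes) and 0 to 10 for strain under PE, where 10 came without MRL replicate 2. Library weights ran from 0.057 (that library) to 56.3, and their estimation stopped before convergence. With them 10 members passed for strain under PE (7996 genes), 8, 3 and 1 for PE, saline and ECM against uninjured in B6 mice (9004 genes for PE), 5 and 1 for PE against saline and ECM in B6 mice, 1, 10 and 10 for PE against uninjured, saline and ECM in MRL mice, and 10 and 9 for the interactions of PE against saline and ECM. Among 14159 genes, 7996 and 9004 passed in the 2 weighted comparisons with a count over all genes. The other weighted member counts have no such count beside them and are not read as results about the members. Equal totals moved the median of all genes by -0.25 to 0.41. With 3 libraries a group, the SE of a difference between groups was 0.54 (*Srebf1*) to 1.36 (*Scd1*).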

Other observations

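In uninjured B6 replicate 3 the members were low for its adipocyte markers, which averaged 6.30. *Fasn* minus the marker level was -1.17 there, against 1.27 to 2.87 in the other 23 libraries and a median of 2.23. It was also the lowest library by this measure for *Acly* (-0.24, next 0.79), *Thrsp* (-0.74, next 0.08), *Scd1* (3.13, next 3.61) and *Acaca* (0.59, next 1.13), 5 of the 10 members. *Me1* (1.93, with a median of 2.93) and *Acsm3* (-2.43, with a median of -3.51) were not the lowest there. This pattern was chosen after the values were seen, was not tested, and no cause was examined.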
